A study of Mus musculus with 30 samples.

Results

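A set of 10 genes of the neuronal cytoskeleton and the synapse were followed in the hypothalamus of mice that were fed, fasted or refed. They are Nefm, Nefh, Ina, Mapt, Map2, Map1b, Stmn2, Gap43, Snap25 and Syt1. They were listed by symbol and matched by Ensembl identifier. All 10 were found in each of 3 tables of gene counts, among 55401 gene identifiers in all. No measured value entered the choice by rule, though earlier results of these data were known when the genes were proposed.

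Neurons hold their shape with intermediate filaments, here the neurofilament proteins of Nefm and Nefh and the alpha-internexin of Ina, and with microtubules. Tau (Mapt) binds microtubules mainly in axons, MAP2 (Map2) mainly in dendrites, and MAP1B (Map1b) in growing and adult neurites. Stathmin-2 (Stmn2) binds free tubulin and GAP-43 (Gap43) is a membrane protein of growth cones and presynaptic endings. SNAP-25 (Snap25) is a subunit of the SNARE complex that fuses synaptic vesicles with the plasma membrane, and synaptotagmin-1 (Syt1) is its calcium sensor. In the hypothalamus, neurons that sense feeding state rewire their synapses in adult life, which makes these genes of interest across a fast.

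The mice were wild type, of the strain that the labels call B6. The sources used here give neither their age nor their sex. The fasting table holds mice fasted for 24 h (n = 3), for 72 h (n = 3) and for 72 h at 18 C (n = 3), with fed mice as their controls (n = 3). The refeeding table holds mice that had fasted for 72 h and then had food back: 3 libraries at 1 h, 3 at 12 h and 4 at 1 week, with no control of its own. The 1-month table holds mice refed for 1 month after a 72 h fast (n = 4) and fed controls of that group (n = 4). Each n counts libraries of total RNA depleted of ribosomal RNA. The labels do not say whether each library is 1 animal, so the p-values measure the spread between libraries, part of which may be technical.

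Library totals were between 27111216 and 43397395 counts in the fasting table, 26115967 and 64269426 counts in the refeeding table and 9347942 and 13813956 counts in the 1-month table. The 1-week libraries, at 46909406 counts or more, were the deepest. The members were read from between 742 counts (Nefh) and 123406 counts (Map1b) in a library. All 16 hypothalamic identity genes, among them Avp, Oxt, Pomc and Agrp, were detected in every table. Levels are CPM on the TMM scale. They were compared within a table only, because the tables list different numbers of gene identifiers (52286, 55401 and 22371) and were scaled apart. In fed libraries of the fasting table the hypothalamic identity genes summed to between 327 and 456 CPM. Striatal projection neuron markers there summed to between 595 and 1041 CPM, and cortical and thalamic markers to between 471 and 609 CPM. In 1-month controls these sums were, in that order, 1132 to 1535, 264 to 287 and 109 to 125 CPM. The part of other brain regions in the libraries was not tested. Nefl, the light neurofilament gene, lies inside the annotated Nefm span on the other strand: it has 0 counts in each fasting and refeeding library, and between 1929 and 3517 counts in the 1-month libraries. A count of 0 for Nefl is therefore not read as silence, and other genes share 15.25% of the Nefm span. The tubulin gene Tubb3, which is not a member, is likewise at 0 in every fasting and refeeding library and was detected in the 1-month table. Exons of other genes overlap 19.16% of the exonic length of Nefm, 14.07% of that of Ina, 0.75% of that of Map2 and 0% of that of the other members.

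Upstream sequence was held for 4 of the 10 genes, Map2, Map1b, Ina and Syt1. The 250 bases before the start that RefSeq annotates are printed for Map2 and Map1b, because their levels in 24 h and 72 h fasted libraries without cold lay apart from those in fed libraries, and for Ina as a neurofilament gene whose levels there did not. Sequences are from RefSeq on GRCm38.p6, written 5′ to 3′ on the strand of the gene. RefSeq's starts are not those of the GENCODE spans given for each gene: the end of the Map2 window lies inside the GENCODE span, and the Map1b and Ina windows end short of theirs. Capitals mark GGGCGG or its reverse complement CCGCCC, and TATAAA or its reverse complement TTTATA. The lines stand for chr1:66175079-66175328 on the plus strand (Map2), chr13:99516603-99516852 on the minus strand (Map1b) and chr19:47014431-47014680 on the plus strand (Ina).
Map2: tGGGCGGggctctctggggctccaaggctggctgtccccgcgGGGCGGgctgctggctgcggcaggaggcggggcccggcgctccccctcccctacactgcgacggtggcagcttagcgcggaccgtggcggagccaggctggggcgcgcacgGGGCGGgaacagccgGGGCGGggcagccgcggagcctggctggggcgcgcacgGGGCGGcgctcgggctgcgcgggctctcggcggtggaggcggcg
Map1b: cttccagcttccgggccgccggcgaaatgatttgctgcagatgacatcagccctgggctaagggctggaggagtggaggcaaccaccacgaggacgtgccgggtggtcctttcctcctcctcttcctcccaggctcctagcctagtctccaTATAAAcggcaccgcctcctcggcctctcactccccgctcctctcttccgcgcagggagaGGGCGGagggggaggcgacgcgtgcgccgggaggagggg
Ina: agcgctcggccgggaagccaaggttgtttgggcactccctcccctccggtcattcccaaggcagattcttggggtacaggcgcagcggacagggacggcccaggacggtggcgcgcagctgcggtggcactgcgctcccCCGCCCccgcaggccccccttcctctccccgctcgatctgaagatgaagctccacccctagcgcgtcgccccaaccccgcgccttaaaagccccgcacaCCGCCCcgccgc
The Map2 window has 5 copies of GGGCGG and the Ina window 2, both read as CCGCCC. The Map1b window has 1 GGGCGG and 1 TATAAA, whose first base is at position -99 from the RefSeq start. Over 32851 promoter windows of the same length, 32.7% held GGGCGG and 12.4% held TATAAA on either strand. These matches describe the letters of the windows only.

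**Figure D1:**
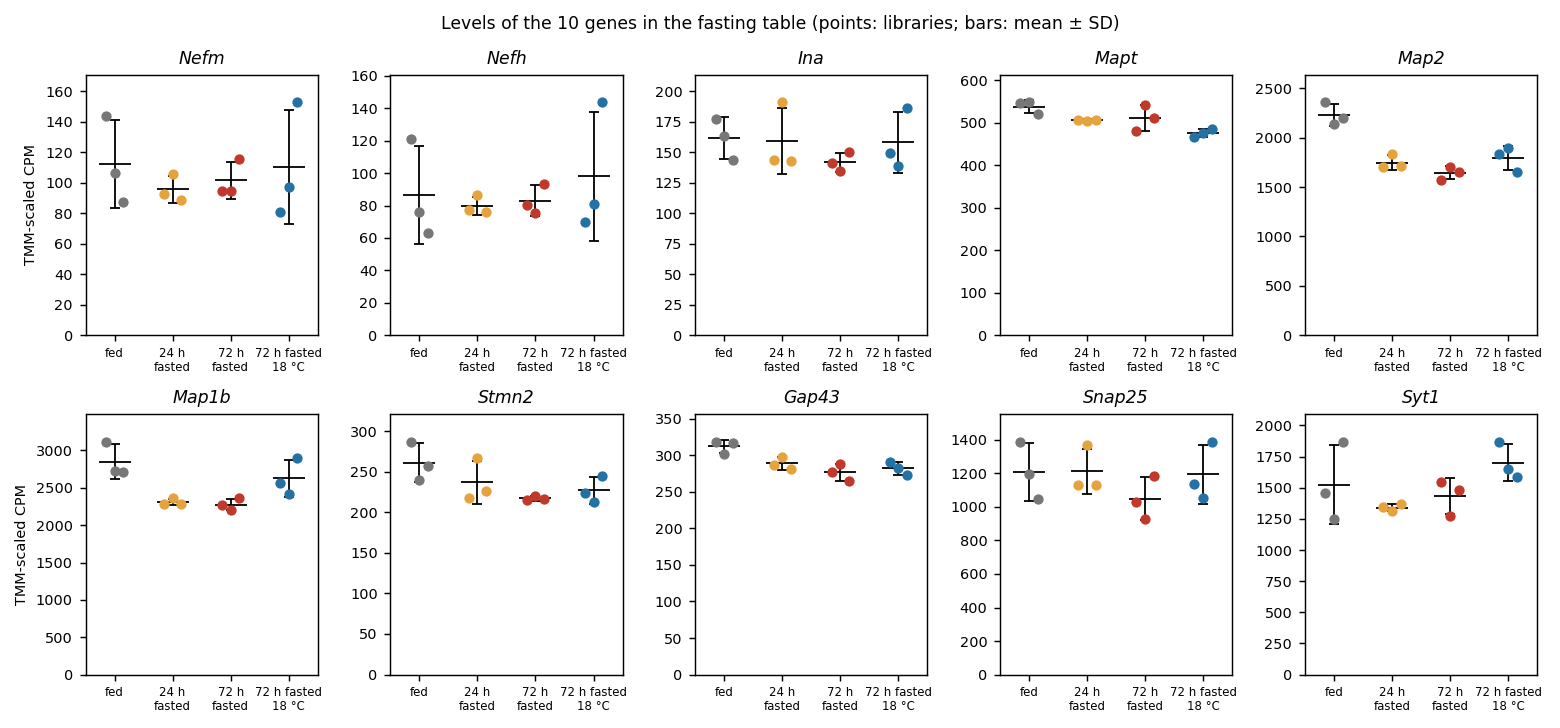
CPM (y axis, from 0) of each gene in the fasting table, with a point per library for fed, 24 h fasted, 72 h fasted and cold 72 h fasted mice, and bars for the mean ± SD of 3 libraries. The fed points of Map2 lie above all others, and fed library 1 and cold library 3 stand high in Nefm and Nefh.

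After 72 h without food, Map2 was lower than in fed mice, and it was the only one of the 10 genes to pass the test. All 10 fitted fold changes were below 0, with a median log2 fold change of -0.18 against 0.01 over all genes tested. The signs of 4 of them, Nefm, Nefh, Ina and Syt1, changed in at least 1 alternative fit. The 2 largest belonged to the microtubule-associated genes Map2 and Map1b. In this comparison 15.1% of 20408 genes were called by edgeR's quasi-likelihood test at a Benjamini-Hochberg adjusted p below 0.05, and 7.78% were called lower. A single call among 10 members is near these shares.

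Map2 (ENSMUSG00000015222, chromosome 1, 66175273 to 66442583, plus strand) had 1575, 1705 and 1655 CPM in 72 h fasted libraries, against 2357, 2144 and 2197 CPM in fed libraries. The groups were well apart, and the highest fasted library lay below the lowest fed one. Map2 averaged 1645 ± 66 CPM in 72 h fasted mice and 2233 ± 111 CPM in fed mice (SD, n = 3 each). The log2 fold change was -0.44 ± 0.10 (SE; 95% interval -0.66 to -0.22, edgeR adjusted p = 0.0203).

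Limits of this call lie in the libraries. It was lost when fed library 1 (edgeR adjusted p = 0.0771), fed library 2 (0.0598), 72 h library 1 (0.0586) or 72 h library 3 (0.0674) was left out, and with 1 surrogate variable (0.237), while the log2 fold change stayed between -0.48 and -0.40. With fed library 1 and cold library 3 both left out, a setting chosen after seeing the data, Map2 had a log2 fold change of -0.40 (edgeR adjusted p = 0.0779).

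Map1b (ENSMUSG00000052727, chromosome 13, 99421446 to 99516540, minus strand) had 2264, 2203 and 2358 CPM in 72 h fasted libraries, against 3117, 2730.4 and 2708.5 CPM in fed libraries. Its groups did not overlap either, yet it missed the threshold (log2 fold change -0.33 ± 0.11, edgeR adjusted p = 0.0633). Mapt (ENSMUSG00000018411, chromosome 11, 104231390 to 104332090, plus strand) had 481, 543 and 509.9 CPM in 72 h fasted libraries, against 546, 547 and 519.5 CPM in fed libraries. Tau transcript levels thus overlapped between the groups.

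Of the axon growth genes, Gap43 (ENSMUSG00000047261, chromosome 16, 42248442 to 42340651, minus strand) had 278, 288 and 264 CPM in 72 h fasted libraries, against 319, 302 and 317 CPM in fed libraries. Stmn2 (ENSMUSG00000027500, chromosome 3, 8509360 to 8561606, plus strand) had 215, 221 and 216 CPM in 72 h fasted libraries, against 287, 239.7 and 257 CPM in fed libraries. Both kept every fasted library below every fed one, and neither passed the test (edgeR adjusted p = 0.136 for Gap43 and 0.0879 for Stmn2). In all, 4 of the 10 members had groups that did not overlap, with the fasted group lower in each, where 20.6% of all genes tested did the same.

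The neurofilament genes and the vesicle fusion genes overlapped between 72 h fasted and fed mice. Nefm (ENSMUSG00000022054, chromosome 14, 68082590 to 68124846, minus strand) had 94.8, 94.5 and 116 CPM in 72 h fasted libraries, against 144, 106 and 87.3 CPM in fed libraries. Nefh (ENSMUSG00000020396, chromosome 11, 4938754 to 4948064, minus strand) had 80.5, 75.1 and 93.6 CPM in 72 h fasted libraries, against 121, 76.2 and 62.9 CPM in fed libraries. In both genes fed library 1 was high and fed library 3 low, so that the fed group alone spanned the fasted values. Ina (ENSMUSG00000034336, chromosome 19, 47014698 to 47025327, plus strand) had 141, 135 and 150.3 CPM in 72 h fasted libraries, against 178, 164 and 144 CPM in fed libraries. Snap25 (ENSMUSG00000027273, chromosome 2, 136713453 to 136782428, plus strand) had 1031, 929 and 1185 CPM in 72 h fasted libraries, against 1389, 1196 and 1045 CPM in fed libraries. Syt1 (ENSMUSG00000035864, chromosome 10, 108497650 to 109010982, minus strand) had 1546, 1271 and 1483 CPM in 72 h fasted libraries, against 1455, 1247 and 1869 CPM in fed libraries. For Syt1 the lowest and the highest of these levels were both in fed libraries.

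Some other genes of the cytoskeleton and synapse had larger fold changes at 72 h than any member. Of 129 tested genes in 5 related lists, 18 were lower and 0 higher in 72 h fasted than in fed mice (14%, where 7.78% of all genes were called lower). Over all genes, the calls in this comparison fell to 5 with 1 surrogate variable, and were 434 to 5446 with a library left out. Refits of the 18 related genes are not given here. Cplx2, whose product complexin-2 clamps and promotes SNARE fusion, had 304 ± 8 CPM in 72 h fasted mice and 547 ± 107 CPM in fed mice (log2 fold change -0.85, edgeR adjusted p = 0.0117). Camk2a, a kinase of the postsynaptic density, had 399.5 ± 77 CPM in 72 h fasted mice and 673 ± 19 CPM in fed mice (log2 fold change -0.75, edgeR adjusted p = 0.0161). The tubulin gene Tuba4a (log2 fold change -0.58), the microtubule-associated Map9 (-0.58), the actin gene Actb (-0.56) and Marcks (-0.58), whose product binds membranes and actin, were also called lower. By list, 4 of 30 microtubule and transport genes, 6 of 17 actin, spectrin and neurofilament genes, 4 of 37 vesicle and SNARE genes, 3 of 32 postsynaptic genes and 1 of 13 general neuron genes (Gad1) were called lower.

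Markers of other tissue moved with the fed group. Liver and muscle markers summed to between 18.7 and 26.0 CPM in 72 h fasted libraries and between 16.9 and 2703 CPM in fed libraries, and 7 of 9 tested were called lower in fasted mice. The highest value was that of fed library 2. Blood markers summed to between 0.841 and 2.33 CPM in 72 h fasted libraries and between 7.35 and 16.2 CPM in fed libraries, with 4 of 4 called lower. Choroid plexus markers summed to between 49.4 and 57.7 CPM in 72 h fasted libraries and between 59.8 and 256 CPM in fed libraries, with 5 of 6 called lower. Striatal projection neuron markers summed to between 386 and 456 CPM in 72 h fasted libraries and between 595 and 1041 CPM in fed libraries, with 5 of 8 called lower. Endothelial markers (5 of 8), meningeal markers (3 of 7) and microglial markers (3 of 7) were called lower in part. Smooth muscle and pericyte markers summed to between 84.5 and 104.5 CPM in 72 h fasted libraries and between 165.6 and 199.5 CPM in fed libraries. Astrocyte markers summed to between 3622 and 3789 CPM in 72 h fasted libraries and between 4332 and 5463 CPM in fed libraries. The oligodendrocyte, hypothalamic identity, cortical and thalamic, and pituitary sums overlapped. Acta1, Alas2, Kcnj13, P2ry12 and Tshb of these lists are at 0 in every fasting library. In bulk tissue, fewer cells of a type and less RNA per cell cannot be told apart. The part of these tissues in the Map2 result was not tested.

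After 24 h without food, none of the 10 genes was called, where 0.0343% of all genes were. Even so, 9 of the 10 fold changes were below 0, with a median log2 fold change of -0.13 against 0.00 over all genes tested, but the signs of Nefh, Ina and Snap25 changed in at least 1 alternative fit. Map2 had 1700.03, 1833 and 1714 CPM in 24 h fasted libraries, each below every fed library (log2 fold change -0.35 ± 0.10, edgeR adjusted p = 0.291). Map1b had 2284, 2358 and 2281 CPM in 24 h fasted libraries, also each below every fed library (log2 fold change -0.31 ± 0.11, edgeR adjusted p = 0.377). Mapt at 505 to 507 CPM and Gap43 at 282 to 298 CPM in 24 h fasted libraries likewise stayed below the lowest fed library, at 519.5 CPM for Mapt and 302 CPM for Gap43. These 4 members without overlap compare with 6.7% of all genes tested that were lower without overlap. Markers of other tissue were lower in the same way: 7 of 7 meningeal, 6 of 8 endothelial, 5 of 8 smooth muscle and pericyte, 3 of 6 choroid plexus and 3 of 4 blood markers had every 24 h library below every fed one, though edgeR called only 1 of all these, a smooth muscle and pericyte marker. Meningeal markers summed to between 48.1 and 67.5 CPM in 24 h fasted libraries and between 86.6 and 135 CPM in fed libraries. Liver and muscle markers had a median log2 fold change of -4.29 with 0 of 9 free of overlap. Their part in the member values was not tested. Ina, Stmn2 and Snap25 were highest in 24 h library 2, at 191, 267 and 1369.7 CPM, and the other 24 h libraries were within or below the fed range. Those libraries, 1 and 3, were nearly alike, at 2284 and 2281 CPM for Map1b and 507.2 and 506.5 CPM for Mapt. The labels do not say whether they come from separate animals. None of 129 related genes was called at 24 h.

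Between 72 h and 24 h of fasting no member was called, against 1.63% of all genes, and for 0 of the 10 did the groups separate, against 34.2% of all genes. The one related gene called was Cplx2, with 304 ± 8 CPM in 72 h fasted mice and 508 ± 114 CPM in 24 h fasted mice (log2 fold change -0.74, edgeR adjusted p = 0.0444). Map2 thus overlapped between the fasted groups, and both were set against the same fed libraries.

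At 18 C, the 72 h fast left the members at levels that no test set apart from those of a 72 h fast without cold. No gene at all was called in this comparison by edgeR (0% of 20408). Of these genes 1296 had an unadjusted edgeR p of less than 0.05, where chance gives about 1 in 20, and 53 genes passed in DESeq2. Map1b had 2569.7, 2417 and 2898 CPM in cold 72 h fasted libraries, above the 2264, 2203 and 2358 CPM of 72 h fasted libraries (log2 fold change 0.21 ± 0.11, edgeR adjusted p = 0.837). Syt1 had 1867, 1652 and 1588 CPM in cold 72 h fasted libraries, also above the 1546, 1271 and 1483 CPM of 72 h fasted libraries (log2 fold change 0.25 ± 0.14, edgeR adjusted p = 0.884). These are 2 of 10 members whose groups did not overlap, where 6.84% of all genes were higher without overlap. The neurofilament genes were spread widely in the cold group, with 1 library high. Nefm had 81.1, 97.2 and 153 CPM and Nefh had 69.7, 80.7 and 144 CPM in the cold 72 h fasted libraries, with the highest value in cold library 3.

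Cold 72 h fasted mice against fed mice gave 0 calls among the 10 members, where 17.9% of all genes were called, 8.78% higher and 9.16% lower. Map2 came closest, with 1838, 1893 and 1653 CPM in cold 72 h fasted libraries, against 2357, 2144 and 2197 CPM in fed libraries (log2 fold change -0.32 ± 0.10, edgeR adjusted p = 0.0504). Mapt had 466, 476 and 486 CPM and Gap43 had 291, 283 and 273 CPM in cold 72 h fasted libraries, each below the lowest fed library. With Map2 this made 3 members lower without overlap, against 20% of all genes. Of 129 related genes, 11 were called lower and 4 higher (11.6%). Rims2 and Rims1, scaffolds of the presynaptic active zone, had 904 ± 81 and 689.9 ± 41 CPM in cold 72 h fasted mice, and 523 ± 122 and 416 ± 144 CPM in fed mice (log2 fold changes 0.79 and 0.73, edgeR adjusted p = 0.00769 and 0.0223). The other genes called higher were Dlgap1 and Gphn, which encode postsynaptic scaffolds. Marcks (log2 fold change -0.68), Tubb2b (-0.67) and Cplx2 (-0.78) were called lower. The meningeal markers (6 of 7) and the endothelial markers (6 of 8) were also called lower in the cold group. So were the liver and muscle markers (8 of 9) and the blood markers (3 of 4). Smooth muscle and pericyte sums were between 71.4 and 98.2 CPM in cold libraries and at least 165.6 CPM in fed libraries. Choroid plexus sums were between 33.5 and 57.5 CPM in cold libraries and at least 59.8 CPM in fed libraries. Astrocyte, oligodendrocyte, microglial and striatal sums overlapped. The part of these markers in the member and related values was not tested.

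**Figure D2:**
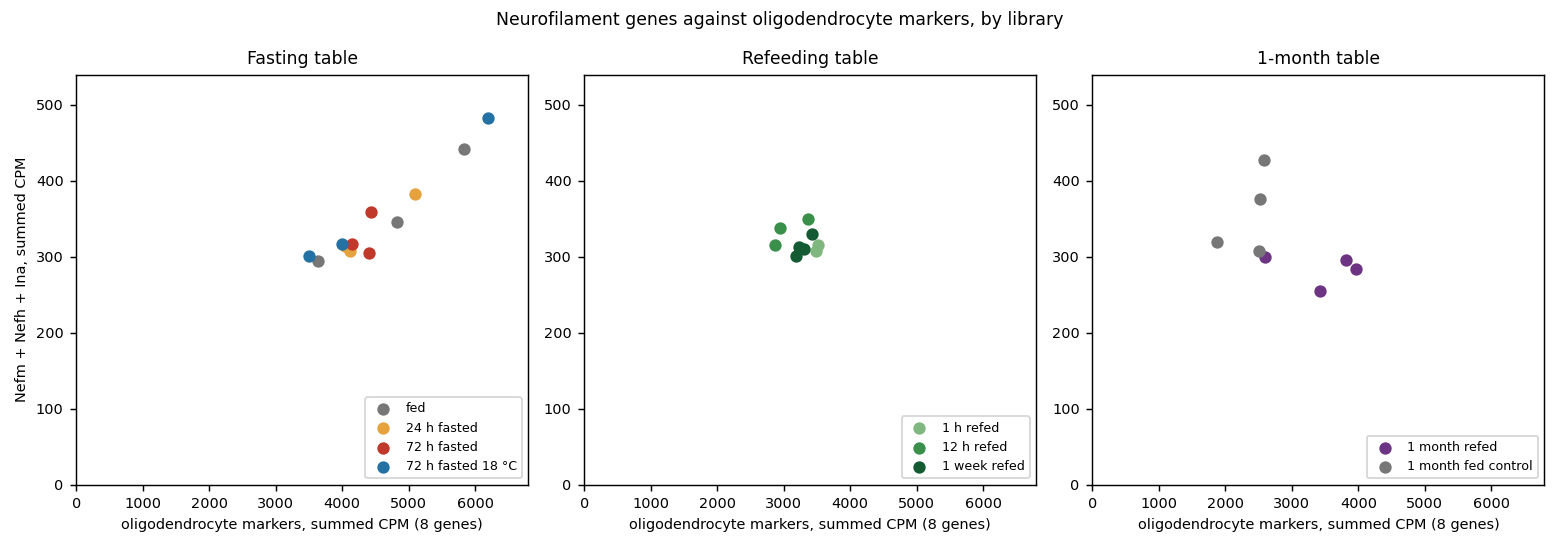
Summed CPM of Nefm, Nefh and Ina (y axis) against the summed CPM of 8 oligodendrocyte markers (x axis), with a point per library and a panel per count table. In the fasting table both sums are low in fed library 3 (294 and 3635 CPM) and highest in cold library 3 (483 and 6190 CPM). Over all libraries r was 0.959 in the fasting table, -0.056 in the refeeding table and -0.484 in the 1-month table.

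Within the fasting table the 3 neurofilament genes followed the oligodendrocyte markers from library to library. The neurofilament sum was 483 CPM in cold library 3 and 442 CPM in fed library 1, the same libraries in which the oligodendrocyte sum was highest, at 6190 and 5828 CPM. Fed library 3 had a neurofilament sum of 294 CPM and an oligodendrocyte sum of 3635 CPM. Over the 12 libraries Pearson's r between the sums was 0.959 and Spearman's rho 0.867. Without cold library 3 and fed library 1, r was 0.855, and between deviations from the group means it was 0.97. Over the other 12 marker lists r lay between -0.31 (choroid plexus) and 0.567 (astrocyte) in this table. Between deviations from group means, the other lists reached 0.729 (smooth muscle and pericyte), 0.695 (astrocyte), 0.671 (microglia) and 0.583 (blood). In the refeeding table the oligodendrocyte r was -0.056 over 10 libraries and 0.763 between deviations from group means, where microglial markers gave 0.808. In the 1-month table it was -0.484 over 8 libraries and 0.177 between deviations. These are descriptions with no test, on sums that share libraries and scaling, and the oligodendrocyte list was singled out after the values were seen.

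A shared profile of the 10 members was taken as the mean of their log2 CPM, each scaled over the 12 fasting libraries. On it, fed library 1 stood highest at 1.47 and 72 h library 1 had -0.67. By correlation with that mean over 12 libraries, the 5 most alike of 10412 genes of at least 10 CPM included Napg (r = 0.961), Rb1cc1 (0.949), Kif5a (0.945) and Kif5c (0.943). By rank the kinesin genes were less alike: Spearman's rho was 0.937 for Napg, 0.93 for Rb1cc1, 0.762 for Kif5a and 0.776 for Kif5c. Napg encodes gamma-SNAP, an adaptor in SNARE disassembly, and Kif5a and Kif5c are kinesin heavy chains of axonal transport.

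**Figure D3:**
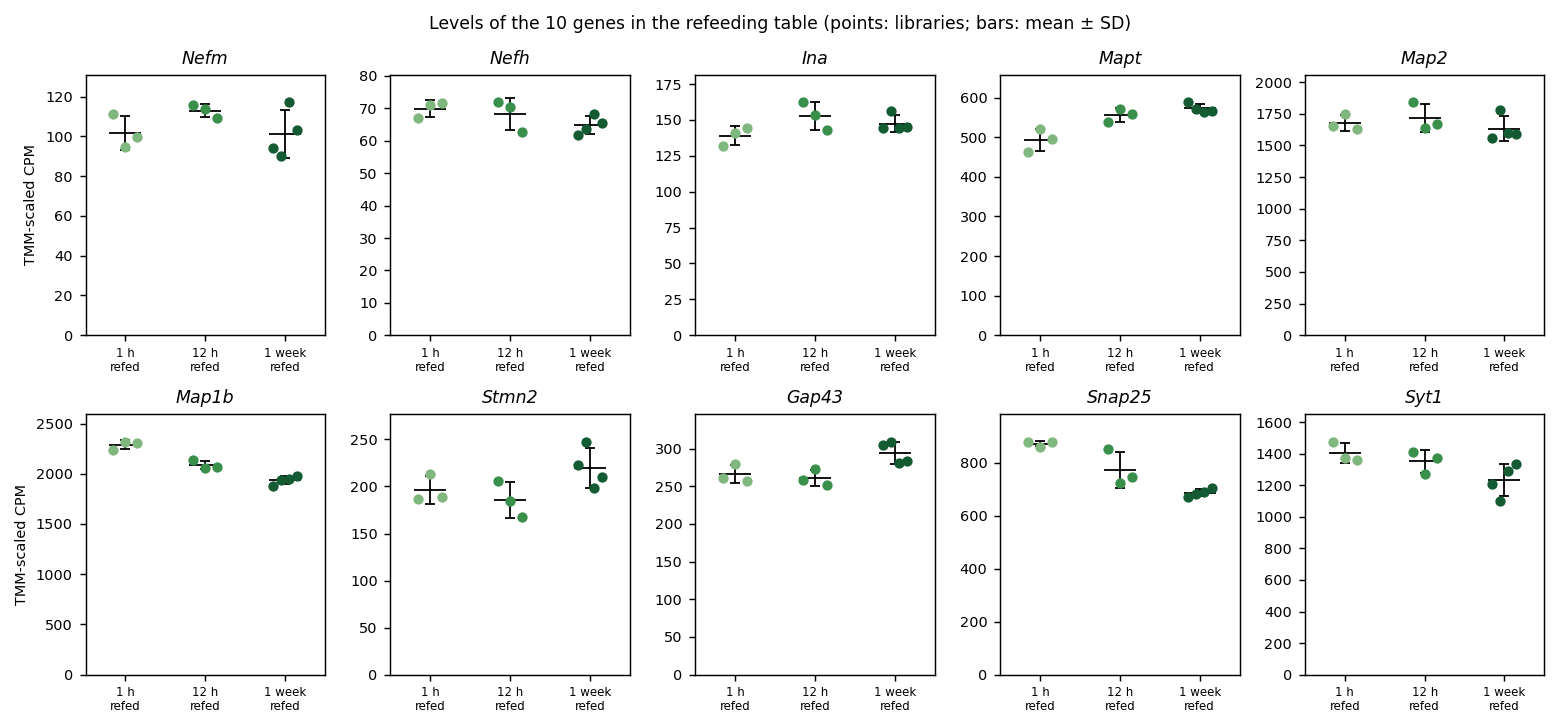
CPM (y axis, from 0) of each gene in the refeeding table, with a point per library at 1 h, 12 h and 1 week of refeeding, and bars for the mean ± SD of 3, 3 and 4 libraries. Snap25 and Map1b step down over the 3 times, while Mapt is lowest at 1 h.

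Over refeeding, Snap25 and Map1b declined in steps and Mapt was higher late than early. At 1 week against 1 h, 3 of the 10 members were called by edgeR, 1 higher and 2 lower, where 26.9% of 19932 genes were called, 13.5% higher and 13.5% lower. The share of members called is thus near that of all genes, and the median log2 fold change of the 10 was -0.03 against 0.00 over all genes tested.

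Snap25 had 878, 862 and 880.3 CPM at 1 h, 852, 724 and 747 CPM at 12 h, and 673, 682, 691 and 704 CPM at 1 week. No group overlapped the next. Its mean was 687 ± 13 CPM at 1 week (SD, n = 4) and 873 ± 10 CPM at 1 h (SD, n = 3), a log2 fold change of -0.35 ± 0.06 (95% interval -0.48 to -0.21, edgeR adjusted p = 0.00149). The call held in 13 of 13 alternatives, 7 of which left out a library, with adjusted p of at most 0.0109.

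Map1b had 2236, 2319 and 2306 CPM at 1 h, 2134, 2059 and 2069.9 CPM at 12 h, and 1882, 1936, 1950.05 and 1975 CPM at 1 week. Here too the groups formed steps without overlap. The mean was 1936 ± 39 CPM at 1 week and 2287 ± 45 CPM at 1 h, a log2 fold change of -0.24 ± 0.06 (95% interval -0.37 to -0.11, edgeR adjusted p = 0.00782). It too was called in 13 of 13 alternatives.

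Mapt had 464, 521 and 495 CPM at 1 h, 538, 572 and 558 CPM at 12 h, and 588, 571, 565 and 566 CPM at 1 week. Every library at 12 h and 1 week lay above every library at 1 h, and the later groups overlapped. For 1 week over 1 h the log2 fold change was 0.21 ± 0.06 (95% interval 0.09 to 0.34, edgeR adjusted p = 0.0164). In edgeR the call was lost without 1 h library 1 (adjusted p = 0.0933), 1 h library 3 (0.0521) or 1 week library 1 (0.0510).

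The other members did not pass in this comparison. Gap43 had 305, 309, 281 and 283 CPM at 1 week, all above the 261, 279.9 and 257 CPM at 1 h (log2 fold change 0.15 ± 0.06, edgeR adjusted p = 0.095). Syt1 had 1209, 1104, 1289 and 1338 CPM at 1 week, all below the 1477, 1376 and 1359 CPM at 1 h (log2 fold change -0.19 ± 0.07, edgeR adjusted p = 0.0788). Ina had 144.4, 156, 144.6 and 144.7 CPM at 1 week and 132, 141 and 144.2 CPM at 1 h. It was higher at 1 week without overlap by a small margin (log2 fold change 0.08 ± 0.06, edgeR adjusted p = 0.336). Members without overlap numbered 3 higher and 3 lower, where 18.5% and 18.4% of all genes were. Stmn2 overlapped, with 222, 248, 199 and 209.8 CPM at 1 week and 187, 213 and 189 CPM at 1 h. Nefm, Nefh and Map2 showed no separation, with Nefm between 90.2 and 117 CPM, Nefh between 61.9 and 71.8 CPM and Map2 between 1562 and 1839 CPM over all 10 libraries.

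The shorter steps called no member. At 12 h against 1 h, 14.2% of all genes were called, and the closest member was Mapt (log2 fold change 0.17 ± 0.06, edgeR adjusted p = 0.0856), followed by Snap25 (-0.17 ± 0.07, adjusted p = 0.108). Without overlap, Mapt was higher at 12 h, like 15.6% of all genes, and Map1b and Snap25 were lower, like 16.3%. At 1 week against 12 h, 11.6% of all genes were called, and the members with the smallest p were Stmn2 (log2 fold change 0.24 ± 0.09, edgeR adjusted p = 0.0818) and Gap43 (0.17 ± 0.06, adjusted p = 0.0825). Gap43 had 305, 309, 281 and 283 CPM at 1 week, all above the 258, 273 and 252 CPM at 12 h, a separation upwards that 11.9% of all genes had. Map1b and Snap25 were lower at 1 week without overlap, as 12.1% of all genes were.

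The related genes split in both directions during refeeding. At 1 week against 1 h, 22 of 129 were higher and 31 lower (41.1%, where the background was 26.9%). Among the higher were the tubulin gene Tuba1b (248 ± 29 CPM at 1 week and 156 ± 16 CPM at 1 h), the stathmin gene Stmn1 (log2 fold change 0.51), and Nlgn1 (0.51), which encodes a postsynaptic adhesion protein. Among the lower were Bsn, which encodes the active zone scaffold bassoon (294 ± 37 CPM at 1 week and 487 ± 7 CPM at 1 h), Camk2a (log2 fold change -0.76), Sv2b (-0.53) and Kif1a (-0.31), a kinesin of synaptic vesicle precursors. At 12 h against 1 h, 12 were higher and 15 lower, with Nlgn1 at a log2 fold change of 0.56 and Tubb4a at -0.50. At 1 week against 12 h, 14 were higher and 13 lower, with Tuba1b at 0.83 and Bsn at -0.65.

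Other markers moved with refeeding time. Blood markers summed to between 401 and 1257 CPM at 1 week and between 68.4 and 123 CPM at 1 h, with 4 of 4 called higher. Meningeal markers summed to between 101 and 139.7 CPM at 1 week and between 33.97 and 60.7 CPM at 1 h, with 6 of 7 called higher. Microglial markers summed to between 139 and 166 CPM at 1 week and between 114 and 118 CPM at 1 h, with 5 of 7 called higher. Cortical and thalamic markers summed to between 219 and 273 CPM at 1 week and between 308 and 376 CPM at 1 h, with 5 of 9 called lower. Choroid plexus markers summed to between 67.6 and 75.1 CPM at 1 week and between 57.0 and 65.8 CPM at 1 h. Endothelial markers went the other way by a small margin, with sums between 94.97 and 107.46 CPM at 1 week and between 107.57 and 165.5 CPM at 1 h. Alas2, Kcnj13 and P2ry12 are at 0 in every refeeding library. The 1-week libraries were also deeper than the rest, and their column names follow another style. The sample titles do not say whether they were sequenced in a separate run. The part of these differences in the member results was not tested.

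**Figure D4:**
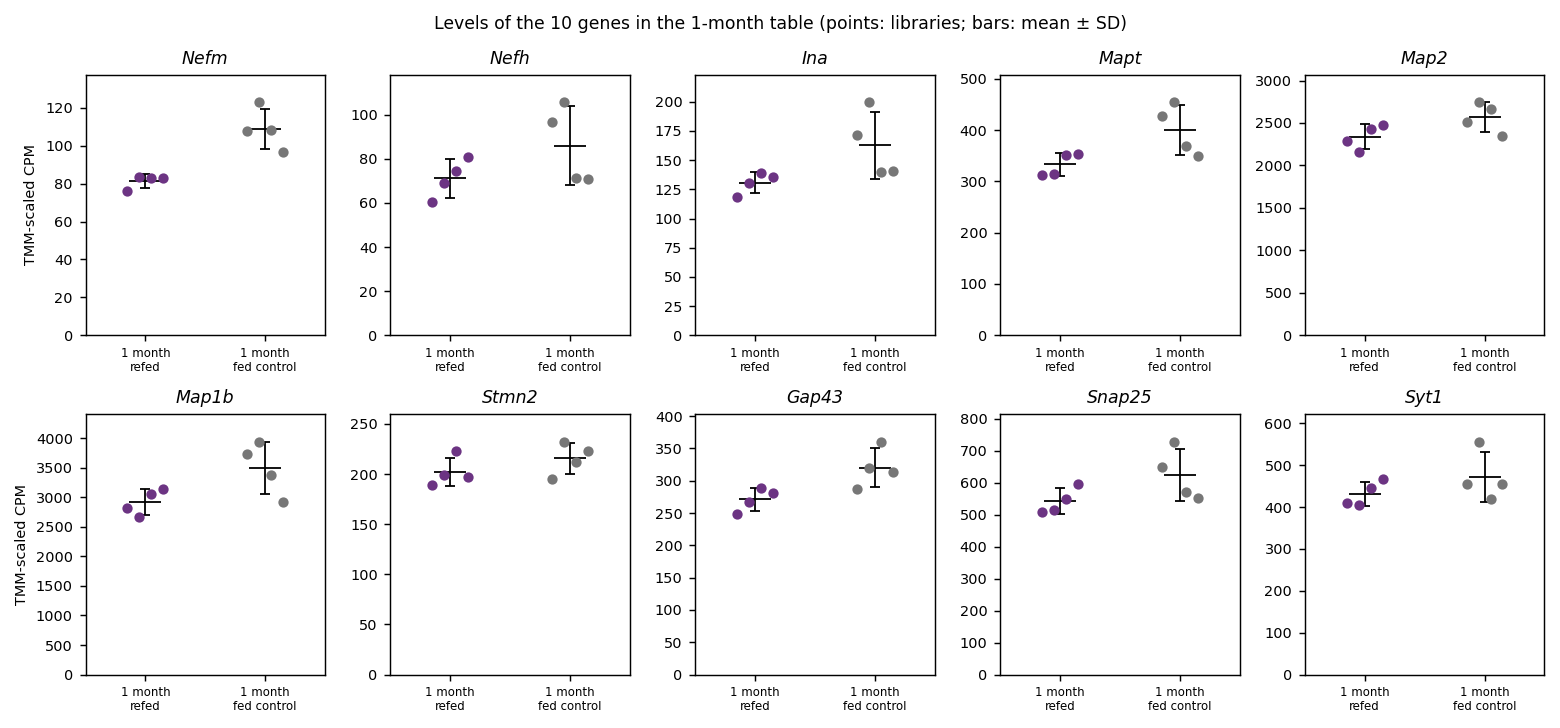
CPM (y axis, from 0) of each gene in the 1-month table, with a point per library for mice refed for 1 month and their fed controls, and bars for the mean ± SD of 4 libraries. The refed points of Nefm lie below all control points.

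One month after the fast, Nefm was lower in refed mice than in their fed controls, and all 10 members had fold changes below 0. The median log2 fold change of the 10 was -0.25 against 0.00 over all genes tested, and the sign of Nefh changed in 1 or more alternative fits. By edgeR 1 of the 10 members was called, where 10.1% of 14867 genes were called and 3.76% were called lower.

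Nefm had 75.9, 83.6, 83.1 and 83.2 CPM in 1-month refed libraries, against 108, 123, 108 and 96.7 CPM in control libraries. The highest refed library lay well below the lowest control. Nefm averaged 81.5 ± 3.7 CPM in refed mice and 109 ± 11 CPM in controls (SD, n = 4 each), a log2 fold change of -0.42 ± 0.08 (95% interval -0.58 to -0.25, edgeR adjusted p = 0.0028). In edgeR it was called in each of 8 fits that left out a library. The call was lost with 1 surrogate variable (log2 fold change -0.32, edgeR adjusted p = 0.167).

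The other neurofilament members, Ina and Nefh, had wider controls. Ina had 119, 131, 139 and 135 CPM in refed libraries, against 172, 199, 139.7 and 141 CPM in control libraries, without overlap by a small margin (log2 fold change -0.32 ± 0.10, edgeR adjusted p = 0.0609). Nefh had 60.3, 68.9, 74.5 and 80.8 CPM in refed libraries, against 96.6, 106, 71.1 and 70.7 CPM in control libraries, and overlapped. Members lower without overlap were thus Nefm and Ina, 2 of 10, where 6.69% of all genes were. Nefl, which is not a member, had between 1929 and 3517 counts over the refed and control libraries. Its levels by group are not given here, and its part in the Nefm result was not tested.

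The microtubule-associated genes overlapped as well. Mapt had 313, 314, 352 and 354 CPM in refed libraries, against 428, 454, 369.6 and 349.8 CPM in control libraries (log2 fold change -0.27 ± 0.08, edgeR adjusted p = 0.0544). Map1b had 2814, 2669, 3056 and 3136 CPM in refed libraries, against 3726, 3941, 3382 and 2929.7 CPM in control libraries (log2 fold change -0.26 ± 0.09, edgeR adjusted p = 0.0732). In both, control library 5 fell among the refed libraries. Map2 had 2284, 2156, 2433 and 2478 CPM in refed libraries, against 2511, 2741.5, 2667 and 2345 CPM in control libraries.

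Gap43 had 248, 267, 289 and 282 CPM in refed libraries, against 288, 319, 360.3 and 313 CPM in control libraries (log2 fold change -0.24 ± 0.08, edgeR adjusted p = 0.0568). Stmn2 had 189, 199, 223 and 197 CPM in refed libraries, against 195, 232, 212 and 223 CPM in control libraries. Snap25 had 507, 514, 548 and 597 CPM in refed libraries, against 648, 728, 572 and 551 CPM in control libraries (log2 fold change -0.21 ± 0.09, edgeR adjusted p = 0.135). Syt1 had 410.3, 406, 446 and 466 CPM in refed libraries, against 456, 556, 419 and 455 CPM in control libraries. All 4 genes overlapped between the groups.

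Nearly all related genes that were called at 1 month were lower. Of 132 tested, 38 were called lower and 1 higher, a share of 29.5% where 10.1% of all genes were called, and their median log2 fold change was -0.20. The lower genes included 13 of 32 postsynaptic genes, 10 of 37 vesicle and SNARE genes, 8 of 18 actin, spectrin and neurofilament genes, 5 of 32 microtubule and transport genes and 2 of 13 general neuron genes. Bsn had 404 ± 39 CPM in refed mice and 609 ± 143 CPM in controls (log2 fold change -0.59, edgeR adjusted p = 0.0315). Shank1, a postsynaptic scaffold gene, had 734 ± 41 CPM in refed mice and 1098 ± 259 CPM in controls (log2 fold change -0.58, edgeR adjusted p = 0.0237). Kif5a (log2 fold change -0.42) and Basp1 (-0.52), which encodes a growth cone protein, were lower too. Stmn4 was the gene called higher, with 77.1 ± 8.0 CPM in refed mice and 57.6 ± 9.6 CPM in controls.

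Markers of several cell types other than neurons were higher in the same refed libraries. Meningeal markers summed to between 412 and 687 CPM in refed libraries and between 68.2 and 161 CPM in controls, with 7 of 7 called higher. Endothelial markers summed to between 328 and 424 CPM in refed libraries and between 250.2 and 303 CPM in controls, with 5 of 8 called higher. Oligodendrocyte markers summed to between 2597 and 3962 CPM in refed libraries and between 1872 and 2584 CPM in controls, and microglial markers to between 239.6 and 265 CPM in refed libraries and between 177 and 228 CPM in controls, with 3 of 8 called higher in each list. Blood markers summed to between 1371 and 4323 CPM in refed libraries and between 1107 and 1843 CPM in controls, with 0 of 5 called. None of these lists had a gene at 0 in every library. Smooth muscle and pericyte markers summed to between 169 and 277 CPM in refed libraries and between 134 and 148 CPM in controls. Choroid plexus markers summed to between 82.9 and 95.7 CPM in refed libraries and between 72.5 and 80.9 CPM in controls. Astrocyte and hypothalamic identity sums overlapped. Each refed library exceeded each control in the meningeal, endothelial, oligodendrocyte, microglial, smooth muscle and choroid plexus sums. These signals and the 1-month refeeding therefore cannot be told apart in these libraries.

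**Figure D5:**
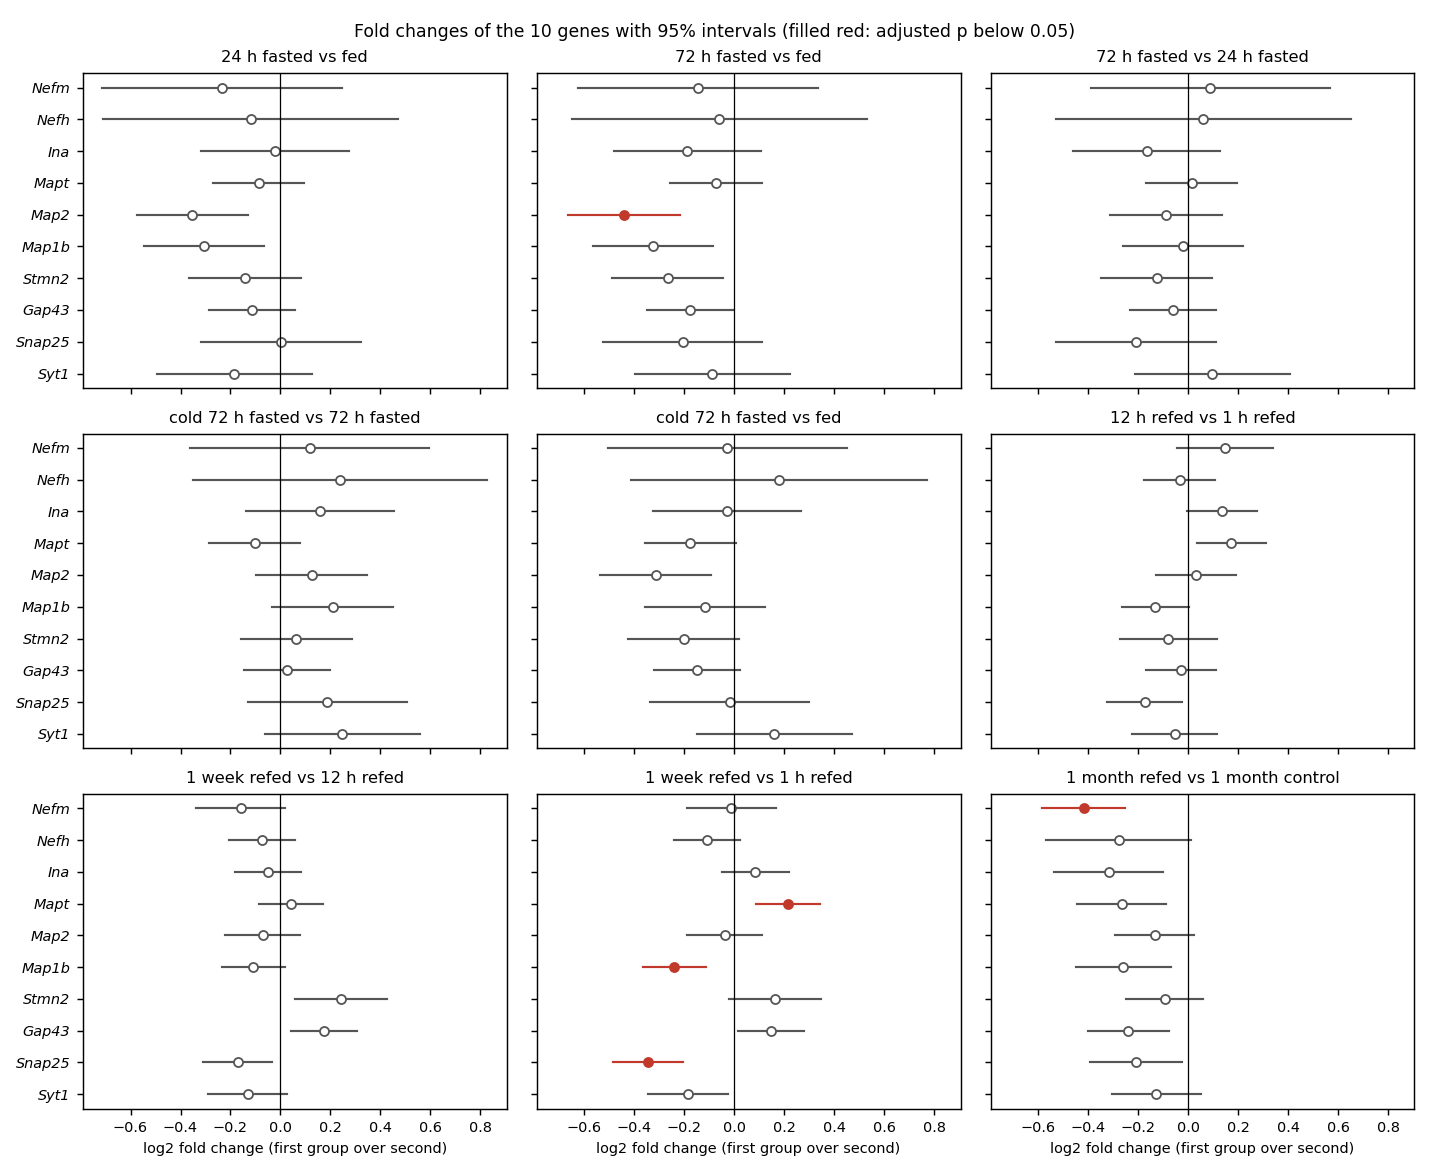
Log2 fold change (x axis, first-named group over the second) of each gene with its 95% interval from edgeR, in 9 comparisons. Filled red points, 5 of 90, have an adjusted p below 0.05: Map2 in 72 h fasted over fed, Mapt, Map1b and Snap25 in 1 week over 1 h refed, and Nefm in 1 month refed over its control.

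Over the 9 comparisons, 5 of 90 member tests were called, on 5 different genes. Nefh, Ina, Stmn2, Gap43 and Syt1 were called in none. Comparisons of one table share libraries, so their calls are not independent of each other.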

How the data were processed

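The authors deposited 3 tables of raw counts per gene, made with HISAT2, featureCounts and edgeR on mm10 according to the submitters' processing notes, which give no versions. Per the labels' protocols, total hypothalamic RNA was depleted of ribosomal RNA and made into directional libraries. Of the per-sample columns, 2 that match no sample here were left out.

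Counts were analysed here in R 4.3.3, each table on its own, with edgeR 4.0.16: filterByExpr, TMM scaling, a robust quasi-likelihood fit over all groups of the table, and Benjamini-Hochberg adjustment over all genes with a threshold of 0.05. Fold changes are the first-named group over the second. Alternatives were DESeq2 1.42.0, its size factors in edgeR, no filter, the groups fitted alone, a replicate block, 1 surrogate variable (sva 3.50.0) and leaving out each library. One more, leaving out fed library 1 and cold library 3 together, was chosen after seeing the data. The fits were tested on simulated data.

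The members and the lists were chosen with earlier results of these data known. In each comparison the called genes of largest fold change, up to 2 per related list and direction, could be named, with the 5 genes most correlated with the members' mean. Some genes that this rule names are not reported here. Upstream sequences are RefSeq's on GRCm38.p6. Gene positions are those of GENCODE M21 (GRCm38). Depth was 9347942 to 64269426 counts per library, and 36 replicate pairs all differed beyond counting noise (chi-square per degree of freedom 3.16 to 105).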

Additional observations from a re-analysis of the deposited data

Results flagged for a closer look

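In groups of 4 libraries, 3 of 30 member values had a library set apart from the other 3 by Dixon's test, where chance gives about 1 in 20. Ina had 156.3 CPM in 1 week refed library 2, and the next highest library of that group had 144.7 CPM. Map2 had 1780.6 CPM in the same library, and the next highest had 1594.4 CPM. Nefm had 75.9 CPM in 1 month refed library 1, the lowest of its group, and the next lowest had 83.1 CPM.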

How the results depend on the processing

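Of the 10 members, edgeR called 1 in 72 h fasted against fed, 3 in 1 week against 1 h refed, 1 in 1 month refed against its control, and 0 in the other comparisons. DESeq2 called 1 in 24 h fasted against fed, 3 in 72 h fasted against fed, 1 in cold 72 h fasted against fed, 3 in 12 h against 1 h refed, 1 in 1 week against 12 h refed and 5 at 1 month. With 1 surrogate variable the counts were 0 in 72 h fasted against fed, 1 in 12 h against 1 h refed and 0 at 1 month. Without the filter they were 1 in 1 week against 12 h refed and 3 at 1 month. With the replicate block they were 1 in 1 week against 12 h refed and 0 at 1 month. Nefm then had a log2 fold change of -0.32 (edgeR adjusted p = 0.0812). Leaving out fed library 1 and cold library 3 together gave 0 in 72 h fasted against fed. The cause of these shifts was not tested.

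Leaving out 1 library at a time gave 0 to 2 called members in 72 h fasted against fed, 0 to 1 in cold 72 h fasted against fed, 0 to 1 in 12 h against 1 h refed, 0 to 1 in 1 week against 12 h refed, 2 to 4 in 1 week against 1 h refed and 1 to 6 at 1 month, where the 6 came without control library 5. Over 413 refits of the 32 member values with an unadjusted p below 0.05 or groups apart, 0 changed sign, 11 lost a call and 32 gained one. Over 737 refits of the other 58 values, 60 changed sign. None of these 58 values is given singly as a difference, but the counts of signs and the medians over the 10 members include them.

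Counts over all genes moved more. For 72 h fasted against fed, 3072 genes were called, against 5 with 1 surrogate variable and 434 to 5446 with a library left out. For cold 72 h fasted against fed, 3661 were called, against 121 to 4798 in other settings and 932 to 5507 with a library left out. For 24 h fasted against fed, 7 were called, against 5 to 206. For 72 h against 24 h fasted, 333 were called, against 35 to 1720 and, with a library left out, 0 to 328. For 1 week against 12 h refed, 2304 were called, against 456 to 2904. For 12 h against 1 h refed, 2834 were called, against 1314 to 3537 with a library left out. For 1 month, 1506 were called, against 135 with 1 surrogate variable, 408 with the replicate block and 775 to 2856 with a library left out. Equal replicate numbers did not pair libraries: the median correlation of their deviations was 0.0092 in the fasting table, 0.0638 in the refeeding table and -0.0362 in the 1-month table.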
